A study of Homo sapiens with 9 samples.

Results

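The genes described here are the kinases and adaptors at the core of the Hippo pathway together with the coactivators that they restrain: STK4 and STK3 (the kinases MST1 and MST2), SAV1, NF2, LATS1, LATS2, MOB1A, MOB1B, YAP1 and WWTR1, which encodes TAZ. They were taken by symbol, and make up 10 of the 61209 symbols in the deposited count table. All 10 passed the filter on low counts, with between 1041 and 11963 reads per library. T1 (GIST-T1) is an established human gastrointestinal stromal tumor (GIST) cell line that is driven by a KIT exon 11 deletion and is sensitive to imatinib. The 9 polyA RNA-seq libraries, 3 per group, were all prepared from T1 cells that carry this deletion and were transfected with small interfering RNA by Lipofectamine RNAiMAX. The first group received siRNA against ESRRA (siERRα), the second received non-target siRNA and imatinib, a drug that blocks the KIT kinase, at 50 nM, and the third received non-target siRNA alone (siNC). Cells were harvested at 48 h. There was 1 cell line, no group with both siERRα and imatinib, and no siRNA sequence in the sources used here. Because the libraries are bulk RNA, fewer cells of a kind and less RNA per cell cannot be told apart.

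The Hippo pathway is a chain of kinases through which cell contact, cell shape and tissue tension reach the nucleus. NF2 (merlin) assembles the pathway at the cell membrane, the MST kinases with their scaffold SAV1 phosphorylate the LATS kinases, and MOB1 proteins bind and activate LATS. LATS then phosphorylates YAP and TAZ, which are held in the cytoplasm or degraded. Unphosphorylated YAP and TAZ enter the nucleus and, through TEAD factors, turn on genes such as CCN1 and CCN2. LATS2 and NF2 are themselves known targets of YAP and TAZ, a feedback loop. All of this control acts on proteins and their phosphorylation, which these libraries did not measure. What was measured is the mRNA of each component.

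Each library held between 37527236 and 49363002 assigned reads. ESRRA stood at 1.40, 0.757 and 1.34 CPM (reads scaled to library size) in siERRα libraries, against 40.7, 44.7 and 40.9 CPM in siNC libraries, a log2 fold change of −5.18 (SE 0.134, edgeR adjusted p = 6.28e-15). Imatinib libraries held 30.4, 32.0 and 35.6 CPM of ESRRA, a log2 fold change from siNC of −0.37 (SE 0.0934, edgeR adjusted p = 0.00383). With imatinib, DUSP6, a transcript induced by ERK signaling downstream of KIT, averaged 42.1 CPM, against 146 CPM in siNC, a log2 fold change of −1.79 (edgeR adjusted p = 1.74e-13). KIT itself, the defining gene of GIST, averaged 1366 CPM in siERRα, 1526 CPM with imatinib and 1305 CPM in siNC. Other GIST markers, in the same order of groups, averaged 406, 585 and 384 CPM (ANO1) and 302, 362 and 247 CPM (ETV1). PRKCQ averaged 15.6, 20.7 and 12.5 CPM, FOXF1 392, 292 and 325 CPM, and BARX1 29.4, 37.5 and 32.4 CPM. At an edgeR adjusted p under 0.05, ETV1, PRKCQ and FOXF1 were higher in siERRα than in siNC. With imatinib FOXF1 was lower, and KIT and the other markers were higher. The leukocyte gene PTPRC was at or near 0 in every group, whereas the epithelial keratin KRT18 averaged 280 CPM in siERRα, 196 CPM with imatinib and 296 CPM in siNC. The epithelial cadherin CDH1 averaged 0.232 CPM in siERRα and 0.831 CPM with imatinib, against 0.353 CPM in siNC, and the endothelial cadherin CDH5 averaged 0.743 CPM in siERRα and 1.5003 CPM with imatinib, against 0.701 CPM in siNC, while EPCAM and PECAM1 were at or under 0.175 CPM in every group. Mitochondrial transcripts took 0.943% to 1.03% of reads in siERRα, 1.48% to 1.54% with imatinib and 0.846% to 0.989% in siNC. The part of these differences in the siERRα and imatinib results was not tested. Both treated groups were set against the same siNC libraries, so those comparisons are not independent of each other.

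LATS2, MOB1A, STK4 and SAV1 were lower after ERRα knockdown than in siNC, and LATS1, MOB1B, STK3, NF2, YAP1 and WWTR1 did not pass the test. A gene was called when its adjusted p in edgeR's quasi-likelihood test, adjusted over 16976 genes, was under 0.05. Of the 10 genes, 4 were called lower and 0 higher, beside 12.6% of all tested genes called lower and 11.4% called higher. An unadjusted p under 0.05, DESeq2 and limma-voom each also gave 4 lower and 0 higher. The median log2 fold change was −0.15 over the 10 genes and 0.01 over all genes. The median size of a change over all genes, regardless of direction, was 0.18.

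**Figure D1:**
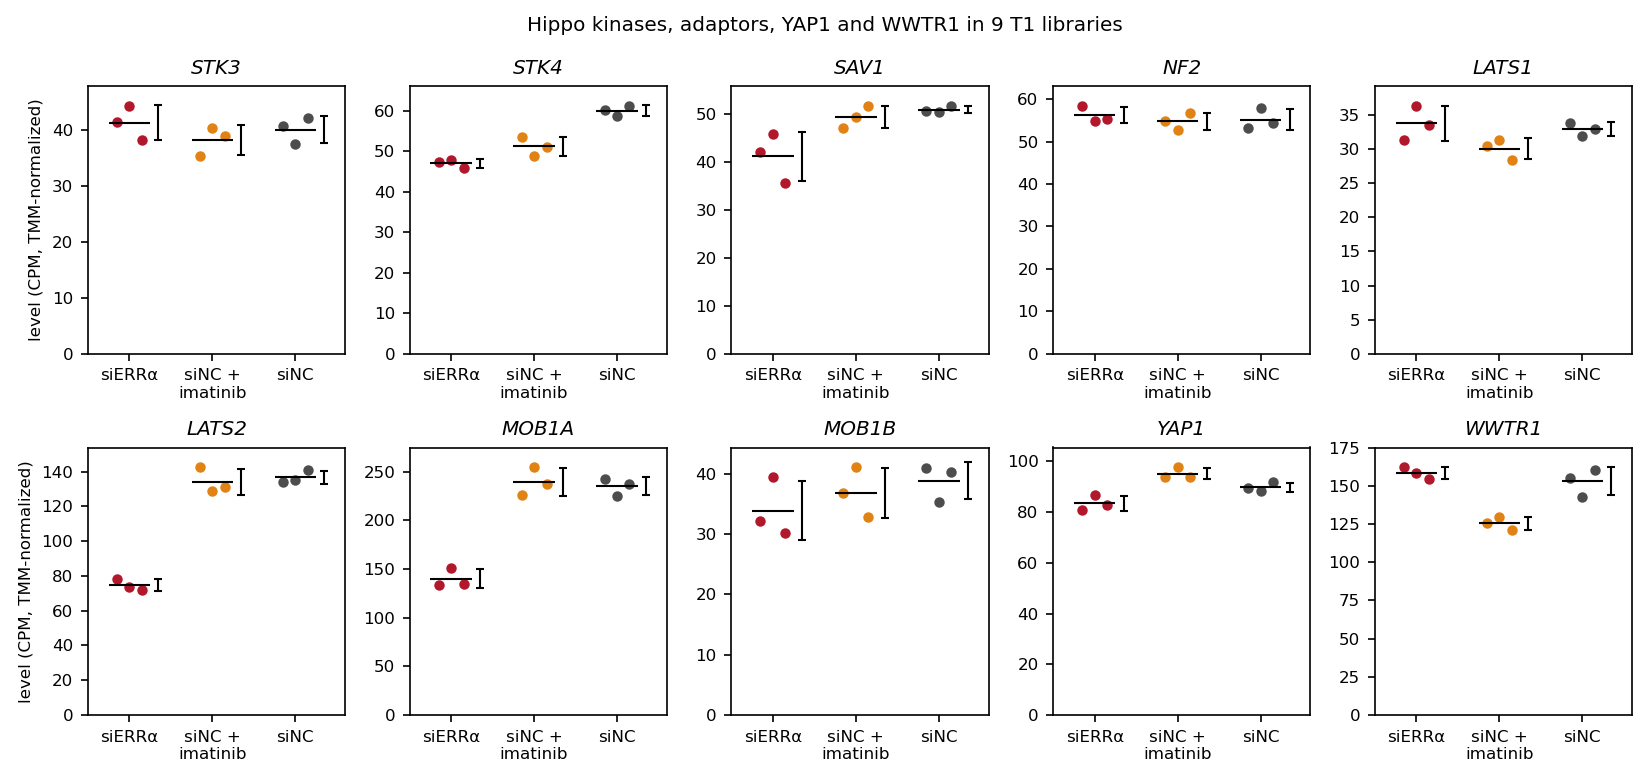
Level of each of the 10 genes in CPM (vertical axis, starting at 0) in each of the 9 libraries (points), with the group mean (line) and SD (bar). The siERRα points lie under the siNC points for LATS2, MOB1A, STK4, SAV1 and YAP1, and the imatinib points lie under the siNC points for WWTR1, STK4 and LATS1.

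LATS2 is the more abundant of the LATS kinases in these cells, and it fell the most of the 10 genes after ERRα knockdown. It lies on the reverse strand at chr13:20973036-21061586 (GRCh38, GENCODE 44). Its level was 78.5, 73.4 and 71.9 CPM in siERRα libraries, against 134, 135 and 141 CPM in siNC libraries. Every siERRα library lay far under every siNC library, and the siERRα mean was 54.6% of the siNC mean. The log2 fold change was −0.87 (SE 0.0593, edgeR adjusted p = 4.32e-09), a larger change in size than that of 96.7% of tested genes. With imatinib LATS2 stood at 142.5, 129 and 131 CPM, which overlapped siNC (log2 fold change −0.03, SE 0.0585, edgeR adjusted p = 0.734). Against imatinib, LATS2 was lower in siERRα by a log2 fold change of −0.85 (SE 0.0594, edgeR adjusted p = 8.59e-10).

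LATS1, its paralog (reverse strand, chr6:149658153-149718105), did not fall with it. LATS1 stood at 31.4, 36.4 and 33.6 CPM in siERRα, against 34.0, 32.0 and 33.0 CPM in siNC. These ranges overlap, with a log2 fold change of 0.04 (SE 0.0707, edgeR adjusted p = 0.777). With imatinib it stood at 30.6, 31.3 and 28.4 CPM, under all 3 siNC libraries, but the difference of −0.13 (SE 0.0715) did not pass the test (edgeR adjusted p = 0.151). The siERRα level was above the imatinib level in all libraries (log2 fold change 0.17, SE 0.0715, edgeR adjusted p = 0.0577). That last difference passed the test only when the first siERRα library (S4) was left out (log2 fold change 0.22, edgeR adjusted p = 0.0259).

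MOB1A and MOB1B encode nearly interchangeable proteins that bind LATS and switch it on. MOB1A (reverse strand, chr2:74152528-74178898) stood at 134, 151 and 135 CPM in siERRα libraries, against 243, 225 and 237 CPM in siNC libraries. The groups were widely separated and the siERRα mean was 59.5% of the siNC mean (log2 fold change −0.75, SE 0.0617, edgeR adjusted p = 5.12e-08), a larger change in size than that of 95.1% of tested genes. With imatinib it stood at 227, 254 and 237 CPM and overlapped siNC (log2 fold change 0.02, SE 0.0612, edgeR adjusted p = 0.781). Knockdown was also lower than imatinib, by a log2 fold change of −0.77 (SE 0.0618, edgeR adjusted p = 5.10e-09). The pseudogenes MOB1AP1 and MOB1AP2 were at 0 reads.

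MOB1B (forward strand, chr4:70902326-71022449) is the minor MOB1 gene here. It stood at 32.1, 39.4 and 30.1 CPM in siERRα, against 41.0, 35.3 and 40.3 CPM in siNC, and the second siERRα library lay within the siNC range. Its log2 fold change was −0.20 (SE 0.0969, edgeR adjusted p = 0.157). Without that library (S5) it was −0.32 (edgeR adjusted p = 0.00711), and the difference from imatinib, −0.12 (SE 0.0977, edgeR adjusted p = 0.319) with all libraries, became −0.25 (edgeR adjusted p = 0.0211). Imatinib libraries held 36.8, 41.1 and 32.8 CPM and overlapped siNC, with a log2 fold change of −0.08 (SE 0.0973, edgeR adjusted p = 0.562). MOB1B shares 199 exonic bases with DCK on the same strand, and how reads there were counted is not given in the sources used here.

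STK4 and STK3 encode the MST kinases, which phosphorylate LATS, MOB1 and SAV1. STK4 (forward strand, chr20:44966494-45080021) was the only one of the 10 genes called lower in both treated groups. It stood at 47.3, 47.9 and 45.8 CPM in siERRα and at 53.6, 48.9 and 51.1 CPM with imatinib, against 60.2, 58.6 and 61.2 CPM in siNC. Neither treated group overlapped siNC. The log2 fold change was −0.35 (SE 0.0602, edgeR adjusted p = 0.000251) for siERRα and −0.23 (SE 0.0604, edgeR adjusted p = 0.00481) for imatinib. The siERRα libraries lay under the imatinib libraries, but this difference of −0.12 (SE 0.0607) did not pass the test (edgeR adjusted p = 0.0978). It passed only without the second imatinib library (S17), at −0.16 (edgeR adjusted p = 0.0451).

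STK3 (reverse strand, chr8:98371228-98942827) overlapped among all groups. Its levels were 41.5, 44.4 and 38.2 CPM in siERRα and 35.3, 40.4 and 39.1 CPM with imatinib, against 40.7, 37.5 and 42.1 CPM in siNC. The log2 fold changes against siNC were 0.04 (SE 0.0742, edgeR adjusted p = 0.725) for siERRα and −0.07 (SE 0.0749, edgeR adjusted p = 0.4999) for imatinib.

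SAV1 (reverse strand, chr14:50632058-50668306) encodes Salvador, the scaffold that joins MST to LATS. It stood at 41.9, 45.8 and 35.6 CPM in siERRα libraries, against 50.5, 50.2 and 51.6 CPM in siNC libraries. All siERRα libraries were lower, although they differed more among themselves than the siNC libraries did (SD 5.15 against 0.731 CPM). The log2 fold change was −0.30 (SE 0.0778, edgeR adjusted p = 0.00716), and it stayed under the threshold whichever library was left out, with a highest adjusted p of 0.0382. Imatinib libraries held 46.9, 49.3 and 51.6 CPM and overlapped siNC (log2 fold change −0.04, SE 0.0777, edgeR adjusted p = 0.686). Against imatinib, siERRα was lower by −0.26 (SE 0.0782, edgeR adjusted p = 0.00884), a call that was lost without the third siERRα library (S6), at −0.18 (edgeR adjusted p = 0.0521). SAV1 shares 1789 exonic bases with ATL1 on the opposite strand, and the strand setting of the counting is not given in the sources used here. ATL1 itself averaged 20.0 counts in siERRα, 18.7 with imatinib and 15.3 in siNC.

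NF2 (forward strand, chr22:29603556-29698598), the merlin tumor suppressor, differed least of the 10 genes. It stood at 58.4, 54.9 and 55.4 CPM in siERRα and 54.8, 52.8 and 56.7 CPM with imatinib, against 53.2, 58.0 and 54.4 CPM in siNC. The ranges overlap in each comparison. The log2 fold changes against siNC were 0.03 (SE 0.0615, edgeR adjusted p = 0.793) for siERRα and −0.01 (SE 0.0618, edgeR adjusted p = 0.920) for imatinib.

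The coactivators themselves changed little with ERRα knockdown. YAP1 (forward strand, chr11:102110447-102233424) stood at 80.8, 86.7 and 82.8 CPM in siERRα and at 94.0, 97.7 and 93.8 CPM with imatinib, against 89.6, 88.2 and 91.8 CPM in siNC. The groups stood in the order siERRα, siNC, imatinib with no overlap, yet neither difference from siNC passed the test. The log2 fold change was −0.11 (SE 0.0551, edgeR adjusted p = 0.175) for siERRα and 0.08 (SE 0.0551, edgeR adjusted p = 0.250) for imatinib. Only siERRα against imatinib was called, at −0.19 (SE 0.0552, edgeR adjusted p = 0.00709).

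WWTR1 (reverse strand, chr3:149517235-149736714) encodes TAZ, the close relative of YAP. It was lower with imatinib and not with ERRα knockdown. WWTR1 stood at 162, 159 and 154 CPM in siERRα and at 125, 130 and 121 CPM with imatinib, against 155, 143 and 161 CPM in siNC. All imatinib libraries lay under all others. The imatinib mean was 82.0% of the siNC mean (log2 fold change −0.29, SE 0.0572, edgeR adjusted p = 0.000480), while siERRα overlapped siNC (log2 fold change 0.05, SE 0.0569, edgeR adjusted p = 0.592). The siERRα level exceeded the imatinib level by a log2 fold change of 0.34 (SE 0.0572, edgeR adjusted p = 6.29e-05). The antisense gene WWTR1-AS1 shares 756 exonic bases with WWTR1 and averaged 12.7 counts in siERRα, 6.33 with imatinib and 14.3 in siNC, far under WWTR1 itself.

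With imatinib, then, STK4 and WWTR1 were called lower and no gene was called higher (2 of 10 lower, 0 higher), beside 20.3% of all tested genes lower and 21.4% higher. The 2 of 10 is close to that background share. An unadjusted p under 0.05, DESeq2 and limma-voom gave the same counts, 2 lower and 0 higher. Between siERRα and imatinib, LATS2, MOB1A, SAV1 and YAP1 were lower and WWTR1 was higher in siERRα, which is 4 of 10 lower and 1 of 10 higher, beside 26.6% of all tested genes lower and 25.6% higher. The median log2 fold change of the 10 genes was −0.06 for imatinib against siNC and −0.12 for siERRα against imatinib, and over all genes it was 0.00 in each.

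**Figure D2:**
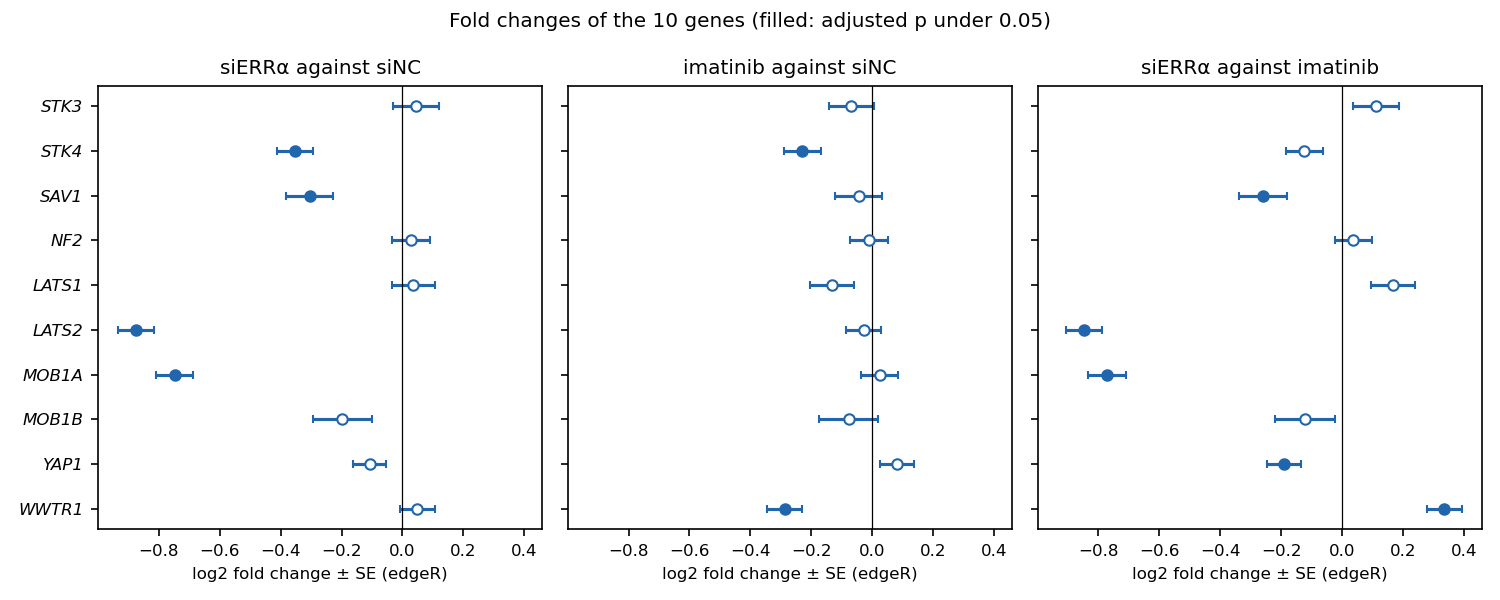
Log2 fold change (horizontal axis) with its SE for the 10 genes in the 3 comparisons. Filled circles mark genes with an adjusted p under 0.05: LATS2, MOB1A, STK4 and SAV1 for siERRα against siNC, STK4 and WWTR1 for imatinib against siNC, and WWTR1, YAP1, SAV1, LATS2 and MOB1A for siERRα against imatinib.

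Levels were compared between genes only per length, as TPM (reads scaled to gene length and library size) over the union of each gene's exons. In siNC, MOB1A led with 152 ± 8.31 TPM, followed by LATS2 with 101 ± 3.63 TPM, WWTR1 with 76.0 ± 5.64 TPM and YAP1 with 59.1 ± 2.00 TPM (SD, n = 3). SAV1 had 37.6 ± 1.02 TPM, NF2 30.9 ± 0.877 TPM and MOB1B 18.3 ± 1.75 TPM. The lowest were LATS1 with 16.1 ± 0.739 TPM, STK4 with 15.03 ± 0.564 TPM and STK3 with 13.2 ± 0.986 TPM. The siNC libraries of MOB1B and LATS1 overlapped, as did those of LATS1 and STK4, and the order of the genes depended in part on the length used. With each gene's longest transcript as its length, siNC levels were 89.7 TPM for WWTR1 and 72.8 TPM for LATS2, the reverse of their order with exon unions, and 22.2 TPM for STK3, 22.0 TPM for STK4, 16.6 TPM for MOB1B and 13.2 TPM for LATS1. MOB1A had more TPM than 92.5% of tested genes and LATS2 more than 88.2%, so the transcripts that fell most after knockdown were also abundant.

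In siERRα WWTR1 stood above LATS2 per length. MOB1A had 88.9 ± 6.43 TPM, WWTR1 77.4 ± 2.05 TPM, LATS2 54.3 ± 2.57 TPM and YAP1 54.0 ± 2.07 TPM (SD, n = 3), and LATS2 and YAP1 did not differ beyond their spread. With the longest transcript, siERRα levels were 91.5 TPM for WWTR1, 83.3 TPM for MOB1A, 45.0 TPM for YAP1 and 39.2 TPM for LATS2. With imatinib the levels were 147 ± 7.98 TPM for MOB1A, 94.9 ± 6.03 TPM for LATS2, 59.6 ± 2.21 TPM for WWTR1 and 59.9 ± 1.34 TPM for YAP1, and WWTR1 and YAP1 did not differ beyond their spread.

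Because several of these genes are paired paralogs with a shared function, the summed level of each pair was computed. These TPM lack the scaling between libraries that the CPM carry, so percentages of siNC differ by a few percent between the measures. With imatinib MOB1A averaged 147 TPM, against 152 TPM in siNC, but 239 CPM, against 235 CPM in siNC. LATS1 and LATS2 together gave 70.6 ± 2.05 TPM in siERRα and 109 ± 6.29 TPM with imatinib, against 117 ± 4.02 TPM in siNC (SD, n = 3), so the siERRα sum was 60.3% of the siNC sum. MOB1A and MOB1B together gave 105 ± 8.72 TPM in siERRα and 164 ± 9.35 TPM with imatinib, against 170 ± 10.0 TPM in siNC, and the siERRα sum was 61.6% of the siNC sum. LATS1 and MOB1B, the less abundant paralogs, were not called higher. STK3 and STK4 together gave 25.01 ± 1.34 TPM in siERRα and 24.3 ± 0.106 TPM with imatinib, against 28.2 ± 1.55 TPM in siNC, which is 88.6% and 86.2% of siNC. YAP1 and WWTR1 together gave 131 ± 2.73 TPM in siERRα and 119 ± 3.51 TPM with imatinib, against 135 ± 7.63 TPM in siNC, which is 97.3% and 88.4% of siNC.

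The balance within each pair was taken as a ratio of counts inside each library, which does not depend on the scaling between libraries. The LATS2 to LATS1 ratio was 2.50, 2.02 and 2.14 in siERRα libraries and 4.66, 4.10 and 4.61 in imatinib libraries, against 3.95, 4.22 and 4.27 in siNC libraries. All siERRα ratios lay under all others, a log2 difference from siNC of −0.91 (SE 0.0995). The MOB1B to MOB1A ratio averaged 0.241 in siERRα and 0.154 with imatinib, against 0.165 in siNC, and here the siERRα libraries were above all others (log2 difference from siNC 0.54, SE 0.0745). The STK4 to STK3 ratio averaged 1.14 in siERRα and 1.35 with imatinib, against 1.499 in siNC (log2 difference of siERRα from siNC −0.40, SE 0.0536). The imatinib libraries overlapped siNC in these 3 ratios.

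The WWTR1 to YAP1 ratio, which is the balance of TAZ to YAP transcripts, moved in opposite directions in the treated groups. It was 2.01, 1.83 and 1.86 in siERRα libraries and 1.33, 1.33 and 1.29 in imatinib libraries, against 1.73, 1.62 and 1.75 in siNC libraries. No group overlapped another. The log2 difference from siNC was 0.16 (SE 0.0536) for siERRα and −0.37 (SE 0.0378) for imatinib, and siERRα exceeded imatinib by 0.53. In an exact two-sided permutation test over 3 against 3 libraries the smallest possible p is 0.1, so no ratio could pass 0.05. Each ratio whose groups did not overlap reached p = 0.1 in that exact test, adjusted to 0.133 over 12 tests.

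**Figure D3:**
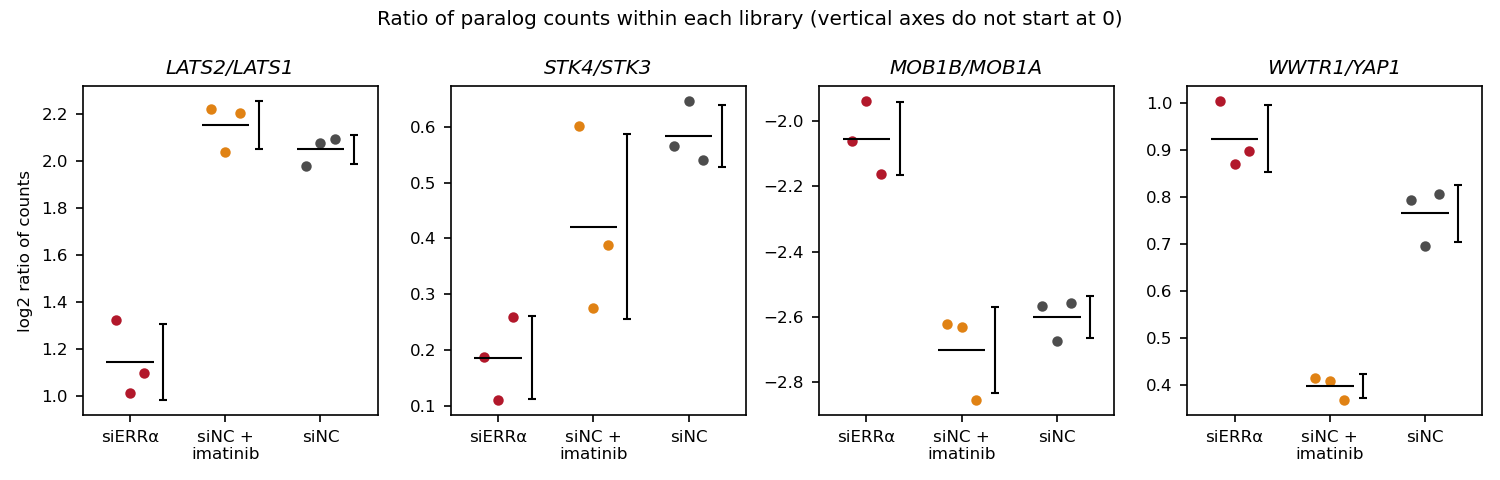
Log2 ratio of the counts of paired genes within each library (points), with group mean (line) and SD (bar). The vertical axes do not start at 0. The siERRα libraries stand apart from siNC in all panels, and the imatinib libraries stand apart from siNC for WWTR1 to YAP1.

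ERRα binds DNA as a nuclear receptor at the element AAGGTCA, and YAP and TAZ act through TEAD factors, which bind GGAATG. Both were searched on either strand in RefSeq promoters (GRCh38.p14) from 250 bases before to 50 bases after each start, and 9 of the 10 genes had an entry. AAGGTCA was in 0 of 9, beside 3.92% of 35116 promoters, which says only that these letters are not in these windows. GGAATG was in 2 of 9, beside 14.0% of all promoters. The 9 are counted by gene, and MOB1A, WWTR1, LATS1 and NF2 had more than a single window each. The shares of all promoters are counted by window, so for both elements the figures are not like for like. The matches are shown because LATS2 is a known feedback target of YAP and TAZ, with the element in capitals on the gene's own strand.
YAP1, chr11:102110274-102110301, forward strand: gggagtgtgcaGGAATGtagcaacttgc
LATS2, chr13:21061561-21061588, reverse strand: gtgacgcccgtGGAATGccaacaatgta
The element begins 162 bases before the YAP1 start and 9 bases after the LATS2 start. A match is a run of letters and not a measured binding site.

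The heptamer ATGTTCT was picked because earlier results of these same libraries had shown it in the 3′ untranslated regions (UTRs) of genes lower after ERRα knockdown, so the counts that follow describe the choice and are no independent support for it. It was searched in the 3′ UTR of the GENCODE 44 canonical transcript of 12748 tested genes with a 3′ UTR of at least 50 bases. The 2420 genes with the heptamer had a median log2 fold change of −0.10 for siERRα against siNC, with 30.3% called lower and 9.05% called higher. The 10328 genes without it had a median of 0.03, with 12.0% called lower and 15.1% called higher. For imatinib against siNC, 26.0% of genes with it and 22.9% of genes without it were called lower. Genes with the heptamer had longer 3′ UTRs, with a median of 3237 bases, against 1111 bases without it. Among genes with a 3′ UTR of 2000 to 4000 bases, a range chosen after seeing the data, 30.2% of 838 with the heptamer and 12.5% of 2130 without it were called lower for siERRα against siNC, at median lengths of 2975 and 2700.0 bases.

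Of the 10 genes, 5 held the heptamer, with 1 copy each: LATS2, MOB1A, STK4, MOB1B and NF2. The sites are shown on the transcribed strand with the heptamer in capitals, since LATS2, MOB1A and STK4 are 3 of the 4 genes that fell.
LATS2, chr13:20973758-20973764, reverse strand, exon 8: agcttcagtgaATGTTCTtagtcctgttt
MOB1A, chr2:74152735-74152741, reverse strand, exon 6: aatatttttaaATGTTCTttacataaaaa
STK4, chr20:45079573-45079579, forward strand, exon 11: ctttggaatacATGTTCTtgtttgtgttt
MOB1B, chr4:70987320-70987326, forward strand, exon 6: cttataaattcATGTTCTcatctgattta
NF2, chr22:29696240-29696246, forward strand, exon 16: acacttggccaATGTTCTgtatttttaat
The coordinates are those of the heptamer itself in GRCh38. Among the 5 genes with it, 3 were called lower, with a median log2 fold change of −0.35, and NF2 stood at 0.03. Among the 5 without it (LATS1, STK3, SAV1, YAP1 and WWTR1), only SAV1 was called lower, and the median was 0.04. The part of the heptamer in the siERRα changes of these genes was not tested.

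**Figure D4:**
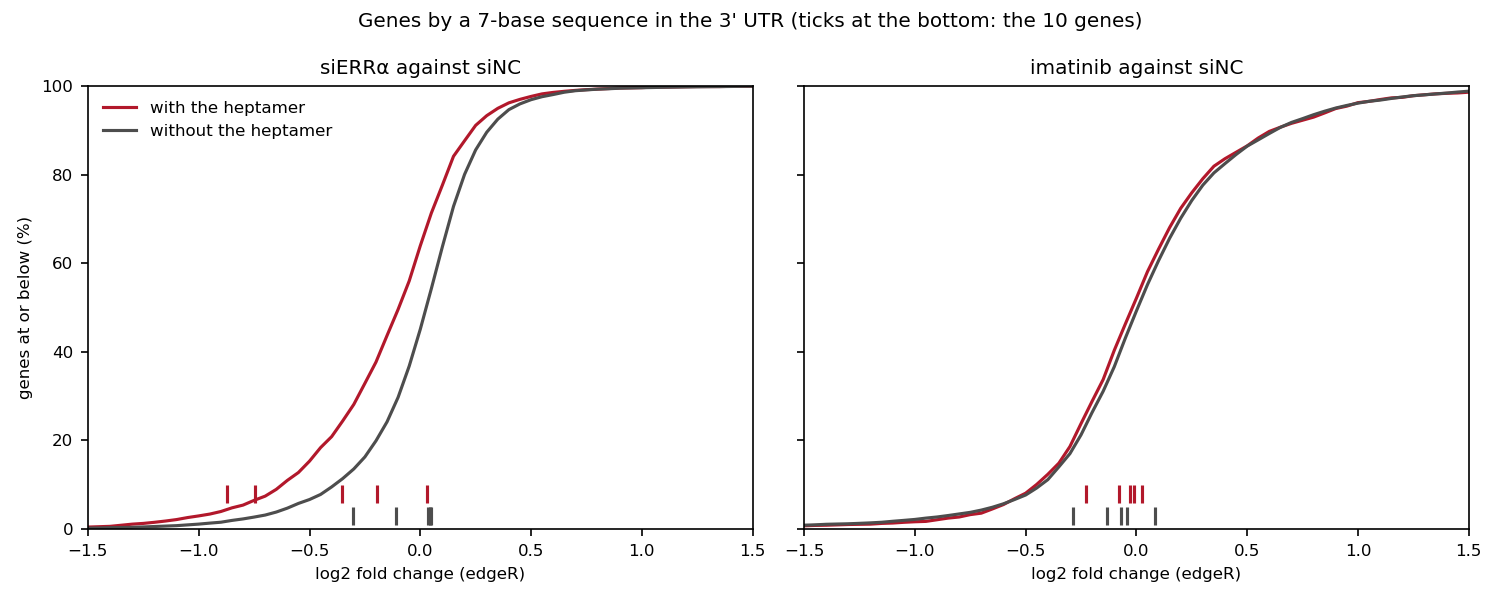
Percent of genes at or below each log2 fold change, for tested genes with (red) and without (grey) the heptamer in the 3′ UTR, with ticks for the 10 genes. For siERRα against siNC the red curve lies left of the grey one (medians −0.10 and 0.03), and for imatinib against siNC the curves lie close together (medians −0.02 and 0.01).

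Around the core, 93 other genes of the pathway were listed by function, and 88 passed the filter on low counts. After ERRα knockdown 25 were called lower and 13 higher (median log2 fold change −0.07), with imatinib 24 lower and 27 higher (median −0.02), and between siERRα and imatinib 34 lower and 25 higher in siERRα (median −0.05). As shares of the 88 these are 28.4% lower and 14.8% higher for siERRα against siNC, beside 12.6% and 11.4% of all tested genes. For imatinib against siNC they are 27.3% lower and 30.7% higher, beside 20.3% and 21.4% of all tested genes. For siERRα against imatinib they are 38.6% lower and 28.4% higher, beside 26.6% and 25.6% of all tested genes. Libraries left out are named by their column labels, S4, S5 and S6 for siERRα, S16, S17 and S18 for imatinib and S1, S2 and S3 for siNC. The shorter lists below are read against the same all-gene shares, and in lists this short a single call can exceed them. Of the 88, the 32 with the heptamer held 14 of the genes lower after ERRα knockdown and 2 of the higher ones, and the 56 without it held 11 of each. The 2 higher genes with it were TNIK (1 copy) and STK24 (2 copies). Among the 11 lower genes without it were NEDD4L, TEAD4 and CCN2. Genes with the heptamer called neither way include ITCH (2 copies, log2 fold change 0.15), MOB3B (2 copies, −0.15) and PPP2CB (1 copy, −0.02). The median 3′ UTR length was 3472 bases in the 32 with it and 1782 bases in the 56 without it. Below, copies are given only for some of the genes that fell. The part of the heptamer in these list counts was not tested.

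Upstream kinases can phosphorylate LATS in parallel to MST. After ERRα knockdown 3 of 10 were higher (30%, beside 11.4% of all genes) and 0 lower (0%, beside 12.6%). An unadjusted p under 0.05 and DESeq2 each gave 1 lower, and limma-voom gave 0. The 3 higher were TAOK2 at 0.41 (edgeR adjusted p = 0.000315), TNIK at 0.33 (edgeR adjusted p = 0.00170) and MINK1 at 0.33 (edgeR adjusted p = 0.00199). TAOK2 averaged 116 CPM in siERRα, against 87.6 CPM in siNC. MAP4K3, singled out after its values were seen, averaged 58.6 CPM in siERRα, against 68.2 CPM in siNC. Its log2 fold change of −0.22 missed the threshold (edgeR adjusted p = 0.0569) and was called lower without S5, S16, S17 or S2 (lowest edgeR adjusted p = 0.000588) and under 5 other settings. With imatinib only MAP4K4, at −0.24 (edgeR adjusted p = 0.00361), and MAP4K1, at 0.65 (edgeR adjusted p = 0.0134), were called, and the MAP4K1 call was lost without the first imatinib library (S16, edgeR adjusted p = 0.0811). These are 10% higher and 10% lower, beside 21.4% and 20.3% of all genes. Leaving out 1 library gave 0 to 2 higher (moved without S5, S16 or S17) and 1 to 2 lower (moved without S16) with imatinib.

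Apical scaffolds hold the pathway at junctions. After knockdown 4 of 12 were lower (33.3%, beside 12.6% of all genes) and 1 was higher (8.33%, beside 11.4%). Leaving out 1 library gave 3 to 5 lower after knockdown. The call of WWC2 (−0.21, edgeR adjusted p = 0.0180) was lost without S4, S6 or S1. With imatinib 2 scaffolds were lower (16.7%, beside 20.3%) and 5 higher (41.7%, beside 21.4%). WWC3, a relative of the scaffold KIBRA, averaged 157 CPM in siERRα and 66.6 CPM with imatinib, against 111 CPM in siNC. Its log2 fold change was 0.50 (edgeR adjusted p = 1.70e-05) for siERRα and −0.73 (edgeR adjusted p = 7.42e-08) for imatinib. AMOT, an angiomotin that binds and retains YAP, went the other way, with 75.5 CPM in siERRα and 166 CPM with imatinib, against 91.4 CPM in siNC. Its log2 fold change was −0.27 (edgeR adjusted p = 0.00181) for siERRα and 0.86 (edgeR adjusted p = 1.32e-09) for imatinib. These are the widest gaps between the treated groups among the scaffolds, with siERRα against imatinib at 1.24 for WWC3 and −1.13 for AMOT. AMOT holds 1 copy of the heptamer in its 3′ UTR.

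RASSF2, which encodes a scaffold that binds and stabilizes MST kinases, averaged 66.3 CPM in siERRα and 121 CPM with imatinib, against 115 CPM in siNC. The fall with siERRα had a log2 fold change of −0.80 (edgeR adjusted p = 1.21e-08), near that of LATS2, and the heptamer occurs 1 time in its 3′ UTR. Of 5 RASSF genes tested, 1 was higher (20%, beside 11.4% of all genes) and 1 lower (20%, beside 12.6%) after knockdown. With imatinib 2 were higher (40%, beside 21.4%) and 1 lower (20%, beside 20.3%), and RASSF4 was at 0.70 (edgeR adjusted p = 3.97e-05). The gene higher after knockdown was RASSF5 (0.19), a call that was lost without S6, S1 or S3 (highest edgeR adjusted p = 0.0809). The STRIPAK phosphatase complex, which removes the activating phosphate from MST, had 3 of 17 genes higher (17.6%, beside 11.4% of all genes) and 1 lower (5.88%, beside 12.6%) after knockdown, with its kinase subunit STK24 at 0.41 (edgeR adjusted p = 3.45e-05). The call of STRIP2 (−0.33) was lost without S4 or S1 and that of PDCD10 (0.22) without S5, S2 or S3. Leaving out 1 library gave 2 to 3 STRIPAK genes higher and 0 to 4 lower after knockdown, and the lower count moved without S4, S5, S1 or S2. With imatinib 4 were higher (23.5%, beside 21.4% of all genes) and 7 lower (41.2%, beside 20.3%). Leaving out 1 library gave 2 to 4 higher, a count that moved without S16, S18, S1 or S3, and 3 to 8 lower, a count that moved without S1 or S3. Those lower include the phosphatase subunit PPP2CB at −0.40 (edgeR adjusted p = 8.07e-05).

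The LIM proteins AJUBA, LIMD1 and WTIP bind LATS and hold it inactive. After ERRα knockdown all 3 were lower (100%, beside 12.6% of all genes) and 0 higher (0%, beside 11.4%). The count of 0 higher was the same by DESeq2, limma-voom and an unadjusted p under 0.05. LIMD1 had the largest fold, −0.83 (edgeR adjusted p = 0.00524), at a low level of 0.897 CPM in siERRα against 1.59 CPM in siNC. All 3 have the heptamer in the 3′ UTR, with 2 copies in AJUBA, 2 in LIMD1 and 1 in WTIP. These 3′ UTRs differ in length, at 2266 bases in AJUBA, 9282 in LIMD1 and 12035 in WTIP. WTIP was at −0.37 (edgeR adjusted p = 0.00692) for siERRα and at 0.77 (edgeR adjusted p = 1.69e-06) for imatinib. It was the only LIM gene called with imatinib, so 1 of 3 was higher (33.3%, beside 21.4% of all genes) and 0 lower (0%, beside 20.3%). The 8 genes grouped here as the NDR branch were STK38 and STK38L, kinases related to LATS, with MOB2, MOB3A, MOB3B, MOB3C, FRY and FRYL. Of these MOB3A alone was called with siERRα, at 0.31 (edgeR adjusted p = 0.00485). That is 1 of 8 higher (12.5%, beside 11.4% of all genes) and 0 lower (0%, beside 12.6%). The higher share is close to that of all genes. With imatinib 3 were higher (37.5%, beside 21.4% of all genes) and 1, STK38L, was lower (12.5%, beside 20.3%). The STK38L call was lost without S1, and that of MOB3B (0.35), among the higher genes, without S16 or S1. Leaving out 1 library gave 2 to 4 higher and 0 to 1 lower with imatinib. Among 10 genes for the turnover of YAP, TAZ and LATS, 3 were lower (30%, beside 12.6% of all genes) and 2 higher (20%, beside 11.4%) after knockdown. One of the higher genes, BTRC (0.17, edgeR adjusted p = 0.0488), lost its call in 8 of the 9 leave-outs, all but that of S4, and under 5 other settings. With imatinib 4 were lower (40%, beside 20.3%) and 2 higher (20%, beside 21.4%), and the higher count was 1 without S2 or S3. The ubiquitin ligase NEDD4L had a log2 fold change of −0.44 (edgeR adjusted p = 5.18e-05) for siERRα and 0.46 (edgeR adjusted p = 1.06e-05) for imatinib.

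TEAD factors carry YAP and TAZ on DNA. TEAD1 stood at 90.6, 98.9 and 88.6 CPM in siERRα libraries and at 174, 181 and 179 CPM in imatinib libraries, against 163, 151 and 155 CPM in siNC libraries. It was lower after knockdown (log2 fold change −0.75, SE 0.0576, edgeR adjusted p = 1.91e-08) and higher with imatinib (0.19, SE 0.0570, edgeR adjusted p = 0.0122), with no overlap between groups. Its 3′ UTR, which is 7515 bases long, holds 3 copies of the heptamer. TEAD4 was also lower after knockdown, at −0.34 (edgeR adjusted p = 0.00187). VGLL4, a competitor of YAP for TEAD, was higher at 0.24 (edgeR adjusted p = 0.00685), a call that was lost without the first siNC library (S1, edgeR adjusted p = 0.0580). The other higher gene, TEAD2 (0.19, edgeR adjusted p = 0.0263), lost its call without S4, S6, S1 or S3. In all, 2 of 5 tested TEAD and VGLL genes were lower (40%, beside 12.6% of all genes) and 2 higher (40%, beside 11.4%) after knockdown. The higher count was 0 without S1. With imatinib TEAD1, TEAD3 and VGLL4 were higher (60%, beside 21.4% of all genes) and 0 lower (0%, beside 20.3%). Of these 3 calls only that of TEAD1 held without S18, S1 or S3. The count of 0 lower was 0 by an unadjusted p under 0.05, DESeq2 and limma-voom also.

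Known transcriptional targets of YAP and TAZ were counted without LATS2. After ERRα knockdown 11 of 20 tested targets were lower and 0 higher, 55% and 0% beside 12.6% and 11.4% of all genes (DESeq2 and limma-voom also gave 11 lower and 0 higher, and an unadjusted p under 0.05 gave 13 lower and 0 higher), with a median log2 fold change of −0.24. Leaving out 1 library gave 9 to 13 lower and 0 higher. The call of ARHGEF17 (−0.20, edgeR adjusted p = 0.0376) was lost without S4, S5, S6, S1, S2 or S3, and that of RBMS3 (−0.28) without S1. CCN2 stood at 705, 713 and 653 CPM in siERRα libraries and at 641, 591 and 690.0 CPM in imatinib libraries, against 1077, 999 and 1019 CPM in siNC libraries. Both treated groups lay under siNC, with log2 fold changes of −0.58 (edgeR adjusted p = 1.08e-06) for siERRα and −0.69 (edgeR adjusted p = 4.03e-08) for imatinib. The smallest adjusted p values after knockdown were those of IGFBP3 at −1.10 (edgeR adjusted p = 3.66e-10) and TGFB2 at −1.11 (edgeR adjusted p = 3.16e-07), whose 3′ UTRs hold 2 copies of the heptamer each. With imatinib 8 targets were lower (40%, beside 20.3% of all genes) and 6 higher (30%, beside 21.4%). Leaving out 1 library gave 7 to 8 lower and 4 to 6 higher with imatinib. Among the higher targets, the call of IGFBP3 (0.19) was lost without S18 or S3. GADD45A was at −1.36 (edgeR adjusted p = 1.37e-09) and CCDC80 at 1.07 (edgeR adjusted p = 1.31e-09). Targets of YAP and TAZ are also controlled by other pathways, so their mRNA is no measure of YAP or TAZ activity alone.

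**Figure D5:**
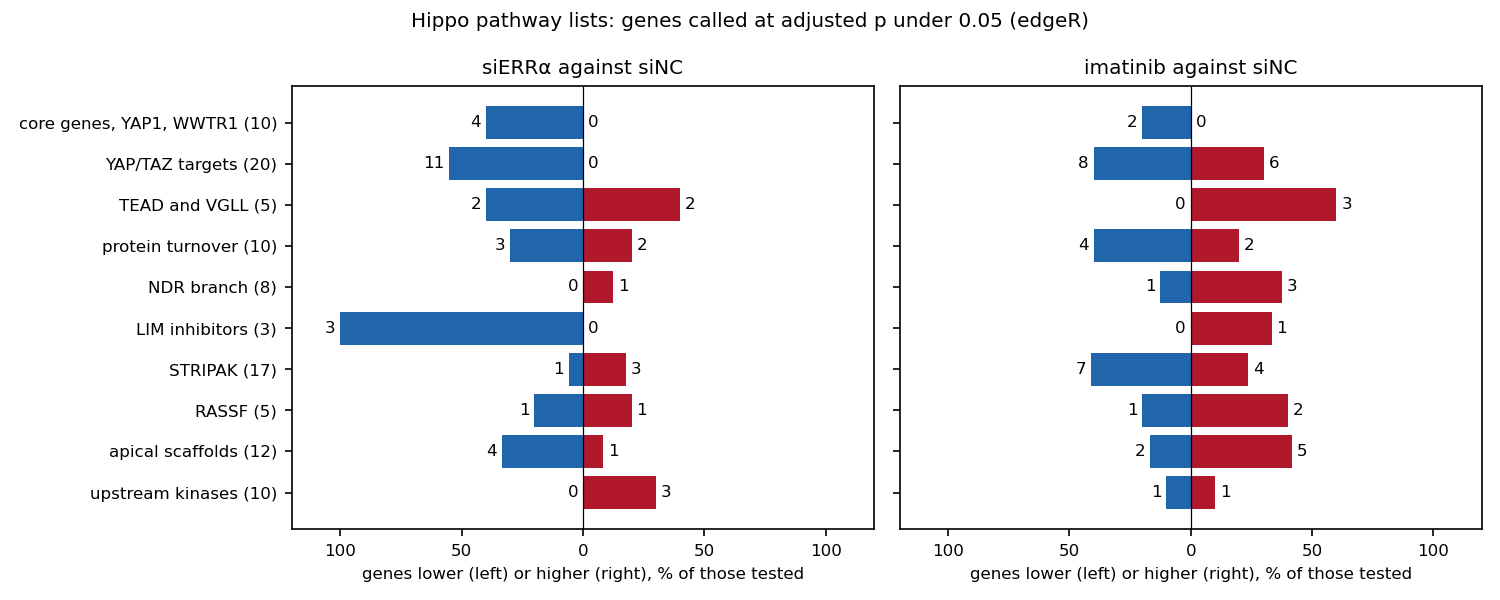
Share of the tested genes in each list called lower (blue, left) or higher (red, right), with the number called at each bar and the number tested in brackets. The 11 lower of 20 YAP/TAZ targets and the 3 lower of 3 LIM inhibitors after ERRα knockdown have no higher counterpart, while imatinib gave 8 lower and 6 higher targets.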

How the data were processed

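Paired-end polyA RNA-seq reads were aligned by the authors with STAR 2.7.3a and assigned to genes with featureCounts 2.0.1 on GRCh38, per the labels and submitters' processing notes; neither the annotation release nor the strand setting was found in the sources used here. The deposited values are raw counts, 1 column per library. The libraries' labels do not say whether they came from separate cultures, so each p-value rests on the spread among these libraries alone, which may be technical. Counts were tested in edgeR 4.0.16 (R 4.3.3) with TMM scaling, a filter on low counts (minimum 10, total 15) and a robust quasi-likelihood fit over all 9 libraries, with Benjamini-Hochberg adjustment over 16976 genes. CPM values are TMM-scaled. DESeq2 1.42.0, limma-voom 3.58.1, other scalings and filters, and leaving out each library were alternatives. TPM used GENCODE 44 exon lengths and no TMM scaling. The text names all 10 genes and, of each other list, genes among the 3 with the smallest p in a comparison. MAP4K3, WWC2, BTRC, TEAD2, ARHGEF17 and RBMS3 are outside that rule and are named because their calls changed when a library was left out. The NDR branch genes are listed in full. The genes, lists, heptamer and motifs were chosen with earlier results of these data known.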

Additional observations from a re-analysis of the deposited data

How the results depend on the processing

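Over 17 alternative settings and 3 comparisons, the 10 genes gave 510 recomputed values, of which 505 kept their side of the threshold, 1 lost its call and 4 gained one. The sign changed in 9 of the 505, all values near 0 that were called in neither fit (LATS1, STK3 and WWTR1 for siERRα against siNC, and LATS2, MOB1A and NF2 for imatinib against siNC, without S5, S2 or S17), and no called value changed sign. The 5 that changed were each set by leaving out 1 library and are given beside their genes above. Requiring also a log2 fold change of 0.5 or more in size left 2 of the 10 genes called for siERRα against siNC (LATS2 and MOB1A), 0 for imatinib against siNC and 2 for siERRα against imatinib, and 12, 15 and 24 of the other pathway genes in the same order of comparisons, where 38, 51 and 59 were called without it. These counts fall by construction, since most called changes were small. Leaving out 1 library gave 4 to 5, 2 to 2 and 4 to 6 of the 10 genes and 30 to 41, 40 to 54 and 54 to 58 of the other pathway genes. The numbers in the column names did not pair the libraries (correlations of same-numbered libraries −0.0996 to 0.147), and a fit with those numbers as a replicate block called 4, 2 and 5 of the 10 genes, as many as without it. With 3 libraries per group, no ratio test could reach an exact p under 0.1, and the 10 genes had at least 1041 reads in every library.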
